A study of Drosophila melanogaster with 26 samples.

Results

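Cg25C, Cad74A and jbug encode a collagen chain, a cadherin and a filamin-like protein, and the transcript of each carried a far higher signal in early somatic cells than in the primordial germ cells (PGCs) of the same embryos. Each gene was followed through 1 transcript on the array, FBtr0079001 for Cg25C, FBtr0075239 for Cad74A and FBtr0071917 for jbug. They are 3 of the 16623 FlyBase transcripts measured, and they were chosen by their measured log2 signal in 1-3 h somatic cells minus that in 1-3 h wild-type PGCs. That excess is therefore given as a description, without a test. RefSeq's Release 6 gene table places the genes on chromosome arms 2L, 3L and 2R and lists Cg25C under its current symbol, Col4a1.

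Cg25C encodes the alpha 1 chain of collagen IV, which joins the alpha 2 chain encoded by the adjacent gene vkg to form the network of basement membranes. In later fly embryos its main source is the hemocytes, the blood cells that migrate through the body. Cad74A encodes a member of the cadherin family of calcium-dependent adhesion proteins, and jbug (jitterbug) encodes a filamin-like protein that binds actin filaments. PGCs form at the posterior pole, where they hold back their own transcription while the soma begins to transcribe the zygotic genome. Smaug is an RNA-binding protein that directs the clearance of maternal mRNAs, and embryos without it fail to activate zygotic transcription normally.

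The study asked how the passage from maternal to zygotic transcripts proceeds in PGCs and whether it depends on Smaug. PGCs carrying a VASA-GFP transgene were sorted by GFP fluorescence from embryos aged 1-3 h, 3-5 h and 5-7 h, with 4 biological replicates per age for wild type. Wild-type somatic cells were the GFP-negative cells of 1-3 h embryos, with 4 replicates. The smaug-mutant PGCs had 3, 3 and 4 replicates at the 3 ages and came from embryos of hemizygous mothers, smg1 over the deficiency Df(3L)Scf-R6. The mutation thus lay in the mother, and the VASA-GFP transgene was shared by all groups. Besides w1118, the stocks carried VASA-GFP over CyO with either PrDr or smg1 over TM3,Sb, and the deficiency was likewise kept over TM3,Sb. Values are log2 of the deposited normalised intensity, so a difference of 1 is 2-fold. Levels of different transcripts are not set against each other, since each has its own probes. Groups hold 3 or 4 samples, so ranges that do not overlap are only described. The share of all transcripts without overlap was not counted.

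Several features of the samples touch every result. The wild-type 5-7 h replicates 3 and 4 stood apart from replicates 1 and 2. Pairs of samples in that group had Spearman correlations from 0.868 to 0.974 over all transcripts, against 0.942 to 0.991 in the other groups. The labels also give Cy3 for the somatic and the smaug-mutant 3-5 h samples and Cy5 for all others, so in comparisons with either of these groups the dye and the group cannot be told apart. The methods state the dyes otherwise, as Cy3 for wild type and Cy5 for the mutant. The germ line markers nos, pgc, gcl, osk, bam, aub and ovo, 7 of the 9 listed, had a summed log2 signal of 16.88 to 17.01 in wild-type 1-3 h PGCs and 13.18 to 13.60 in somatic cells. The study lists osk and gcl among transcripts that decrease in wild-type PGCs at 3-5 h, and gcl and bam as Smaug-dependent for decay at 5-7 h. Between ages or genotypes this sum is therefore no plain measure of germ cell content. The smg transcript itself had a mean log2 signal of 13.71 ± 0.32 (SD, n = 4) in wild-type and 11.52 ± 0.29 (SD, n = 3) in mutant 1-3 h PGCs. The feature for GFP read 12.49 to 13.02 in the GFP-negative cells and 10.81 to 13.36 over all 26 samples.

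In 1-3 h somatic cells the log2 signal of Cg25C was 15.11, 15.21, 15.17 and 15.35 in replicates 1 to 4. In wild-type PGCs of the same age it was 7.11, 7.15, 8.48 and 7.05. The groups lay far apart, replicate 3 of the PGCs was the highest of its group, and the mean excess in the soma was 7.76 (217-fold). Somatic Cad74A had log2 signals of 13.43, 13.52, 13.38 and 13.45, against 5.50, 6.66, 5.38 and 5.67 in the PGCs. Replicate 2 was the highest of these PGC samples, and the mean somatic excess was 7.64 (200-fold). Somatic jbug had log2 signals of 13.44, 13.27, 13.51 and 13.44, against 4.98, 5.93, 6.21 and 6.29 in the PGCs. No PGC sample came near the somatic range, and the mean excess was 7.56 (189-fold). Among all 16623 transcripts these differences ranked 4, 7 and 9, and among the 5383 with a gene name they ranked 1, 2 and 3. The transcript ranked just below jbug differed by 7.41 and has no name here, and the next named gene, CG14629, differed by 7.31. In sorted samples, fewer cells of a type and less RNA per cell cannot be told apart.

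**Figure D1:**
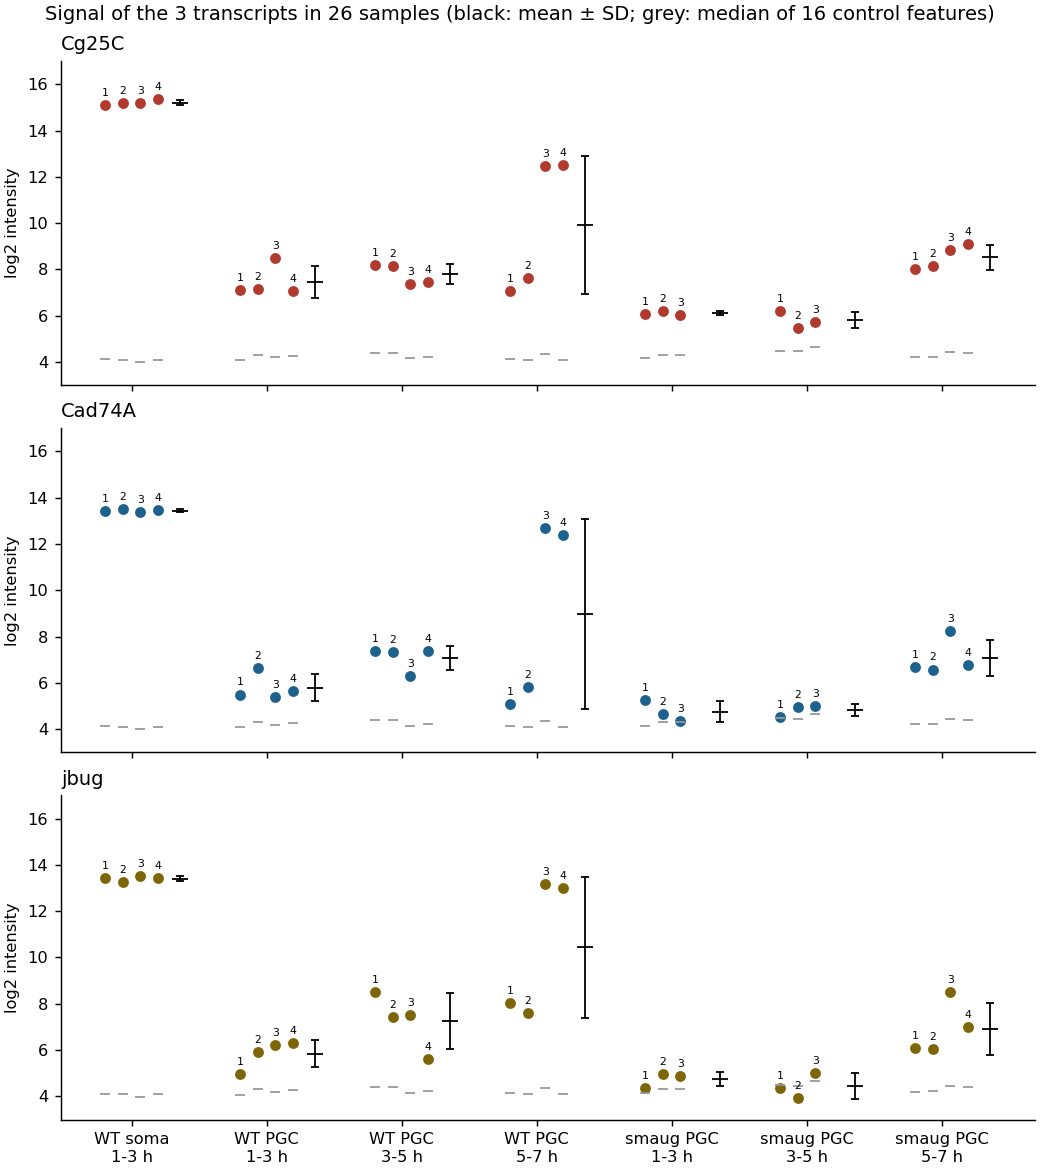
Log2 intensity of Cg25C, Cad74A and jbug (vertical axes) in the 26 samples of 7 groups (horizontal axis); each dot is 1 sample with its replicate number, black bars give the mean ± SD, and grey ticks give the median of the 16 array controls on that sample. Somatic samples lie at 13.27 or above, and among PGCs only wild-type 5-7 h replicates 3 and 4 lie above 12.

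The low end of the scale was set by 16 control features that match no fly gene, whose median log2 signal per sample was 3.99 to 4.66. In wild-type 1-3 h PGCs at most 2 of the 16 controls reached the signal of any of the 3 transcripts. In smaug-mutant PGCs at 1-3 h, between 1 and 7 controls reached Cad74A and between 2 and 6 reached jbug. At 3-5 h the numbers were 4 to 8 for Cad74A and 4 to 16 for jbug. These mutant values lie within the range of the controls and give only an upper limit to the level of both transcripts, so a difference from a brighter group may be larger than the one measured. Cg25C was reached by at most 3 controls in the mutant samples at any age.

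In wild-type PGCs at 3-5 h Cg25C had log2 signals of 8.19, 8.16, 7.38 and 7.47, which overlapped those at 1-3 h. Cad74A had 7.38, 7.32, 6.30 and 7.36, with replicate 3 the lowest, and its range overlapped the earlier one through that replicate alone. For jbug the 4 values were 8.50, 7.41, 7.51 and 5.63, and only replicate 4 lay within the 1-3 h range. The mean differences from 1-3 h were 0.35 ± 0.36 (SE), 1.29 ± 0.35 and 1.41 ± 0.57 for Cg25C, Cad74A and jbug, given without a test because the 1-3 h samples served to choose the transcripts. At 3-5 h the mean signals were 0.588% of the somatic level for Cg25C, 1.22% for Cad74A and 1.41% for jbug.

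At 5-7 h the wild-type replicates fell into 2 pairs. Cg25C had log2 signals of 7.06 and 7.64 in replicates 1 and 2, whereas replicates 3 and 4 had 12.45 and 12.50. Cad74A had 5.09 and 5.82 in the first pair and 12.69 and 12.38 in the second. For jbug the pairs were 8.02 and 7.58, and 13.16 and 12.99. Replicates 1 and 2 lay near the values of earlier PGCs, whereas replicates 3 and 4 carried signals higher by 5.12, 7.08 and 5.28 on the log2 scale for Cg25C, Cad74A and jbug. As a share of the mean somatic level at 1-3 h, replicates 3 and 4 held 14.7% and 15.3% for Cg25C, 59.4% and 47.8% for Cad74A and 84.2% and 74.7% for jbug. In replicates 1 and 2 the shares were 0.353% and 0.525% for Cg25C, 0.305% and 0.505% for Cad74A and 2.38% and 1.75% for jbug.

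Many other somatic transcripts divided these samples in the same way. Of the transcripts with a somatic excess above 5 and a somatic log2 signal above 12, the 110 others had a median share of the somatic level of 3.28% in replicate 1 and 3.74% in replicate 2. In replicates 3 and 4 this median stood at 66.1% and 60.4%. In the latter pair only 10 of the 110 had a lower share than Cg25C, whereas 48 and 44 lay below Cad74A and 71 and 68 lay below jbug. In replicate 1, none of the 110 had a lower share than Cg25C or Cad74A, and in replicate 2, 3 of them did. The 3 transcripts and the 110 were chosen on the same somatic excess, whose somatic level is the divisor of each share, so their places among the 110 are a description set partly by that choice.

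**Figure D2:**
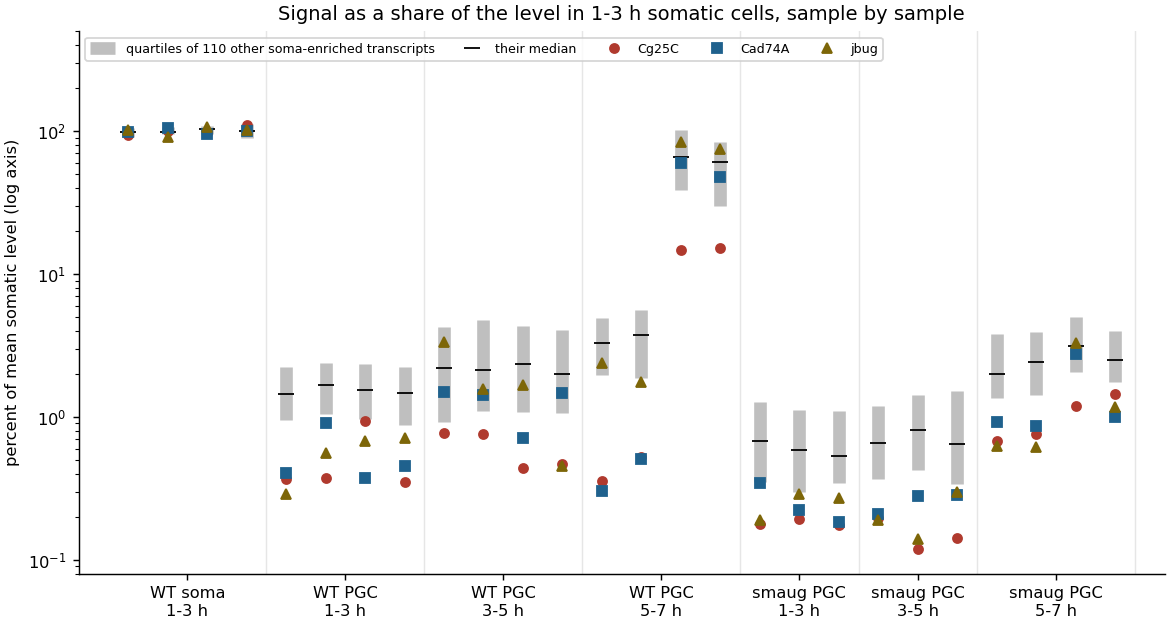
Signal of Cg25C, Cad74A and jbug in each of the 26 samples as a percentage of the mean level in 1-3 h somatic cells (log axis); grey bars span the quartiles and black ticks mark the median of 110 other soma-enriched transcripts. Wild-type 5-7 h replicates 3 and 4 hold a median of 66.1% and 60.4%, against 3.28% and 3.74% in replicates 1 and 2.

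Markers of other cell types moved with this division. The mesodermal genes sna, a transcriptional repressor active in the early mesoderm, and Mef2, a regulator of muscle genes, are 2 of the 6 on their list with a named transcript. Their summed log2 signal was 10.44 and 10.48 in the first pair, 14.47 and 14.37 in the second, and 14.45 to 14.68 in somatic cells. The Sox gene D (Dichaete), the only named one of 5 ectodermal and neuroectodermal markers, had 11.64 and 11.39 against 14.75 and 14.74. For hkb and tll, 2 of 4 markers of the endoderm and termini, the sums were 12.63 and 12.23 against 13.56 and 13.18, with hkb higher and tll lower in the second pair. The hemocyte list, with 4 of 7 measured by name, hardly differed in its sum, at 14.82 and 14.83 against 14.89 and 14.67, but its members did not move alike. Pxn, Pvr and ush held 1.43% to 16.9% of the somatic level in the first pair and 12.8% to 73.6% in the second, whereas the abundant crq ran the other way, from 251% and 252% to 175% and 146%. Germ line markers had sums of 16.41 and 16.53 in the first pair and 15.25 and 15.45 in the second. The part of other cell types in the signals of Cg25C, Cad74A and jbug in these 2 samples was not tested.

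**Figure D3:**
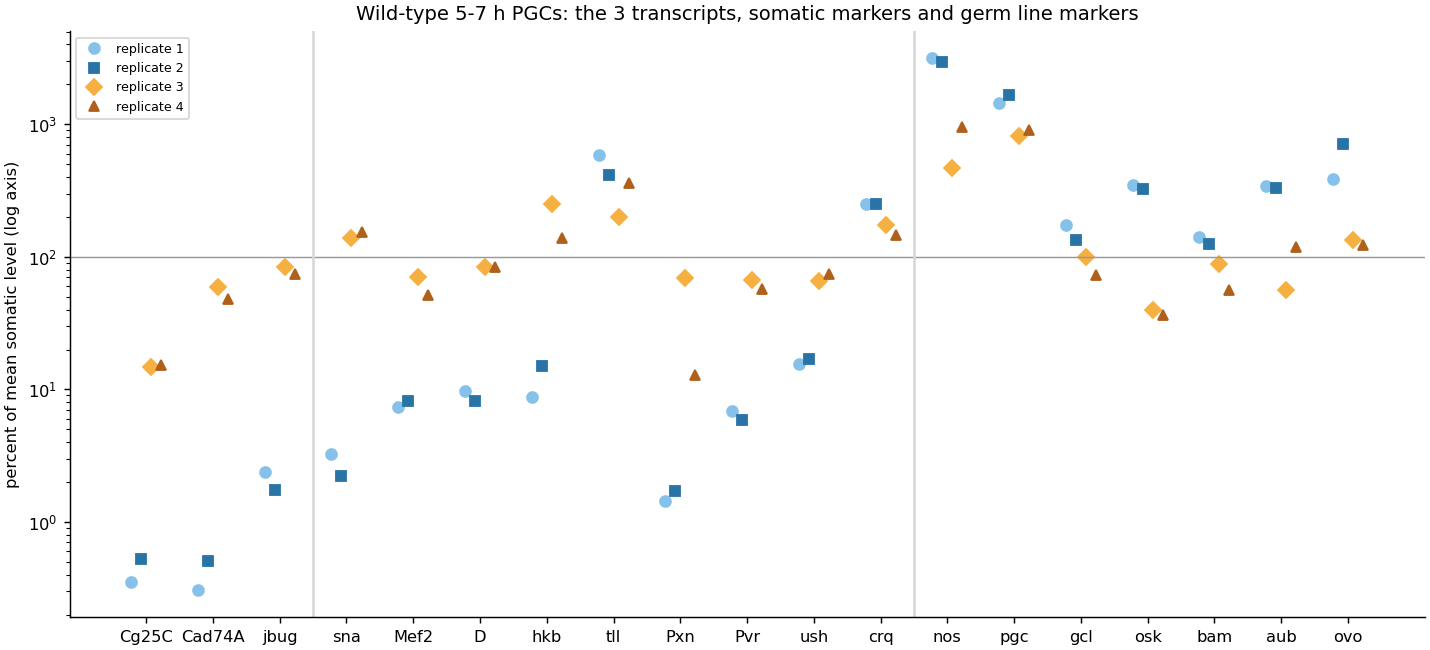
Signal in the 4 wild-type 5-7 h PGC samples as a percentage of the mean level in 1-3 h somatic cells (log axis) for Cg25C, Cad74A and jbug, for 9 named markers of somatic cell types and for 7 germ line markers; each symbol is 1 sample. Replicates 3 and 4 lie above replicates 1 and 2 for the 3 transcripts and for the somatic markers other than tll and crq, and below them for the germ line markers.

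The wild-type comparison of 5-7 h with 3-5 h, both labelled Cy5, used samples that played no part in choosing the transcripts. With 4 samples against 4, limma called 0 of the 3, and 0 had an unadjusted p under 0.05. A call needed a Benjamini-Hochberg adjusted p below 0.05 over all transcripts and more than a 2-fold change, and 2.95% of all transcripts met it here. The differences were 2.11 ± 1.30 (SE, adjusted p = 0.359) for Cg25C, 1.91 ± 1.78 (adjusted p = 0.552) for Cad74A and 3.18 ± 1.42 (adjusted p = 0.218) for jbug. The 95% confidence intervals ran from -0.87 to 5.09, from -2.19 to 6.0 and from -0.08 to 6.44, each holding values below 0 as well as a large rise. Without replicates 3 and 4 the differences became -0.45, -1.64 and 0.54, so that the sign turned for Cg25C and Cad74A. Without replicates 1 and 2 they became 4.67, 5.45 and 5.82. The pairs were told apart by these same signals, so values for either pair are given without a test here and in the comparisons of genotypes.

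In smaug-mutant PGCs the 3 transcripts were lower still at 1-3 h. Cg25C had log2 signals of 6.07, 6.20 and 6.05, all below the lowest wild-type value of 7.05. Cad74A had 5.26, 4.64 and 4.37 and lay below the wild-type minimum of 5.38, and jbug had 4.38, 4.98 and 4.88, of which replicate 2 equalled the lowest wild-type sample at this precision. The mean differences from wild type, both labelled Cy5, were -1.34 ± 0.36 (SE), -1.05 ± 0.36 and -1.11 ± 0.34, again without a test. The somatic signal exceeded that of the mutant PGCs by 9.10, 8.69 and 8.67. The same 110 somatic transcripts held a median of 0.534% to 0.68% of the somatic level in mutant and 1.44% to 1.67% in wild-type 1-3 h PGCs. D had log2 signals of 6.78 to 8.08 in mutant and 10.52 to 11.88 in wild-type samples, and the sums of hkb and tll were 8.69 to 9.57 and 11.03 to 11.41. Those of sna and Mef2 were 11.67 to 11.93 and 12.11 to 12.79. D and both sums were lower in the mutant without overlap, but the members of the mesodermal sum differed. Mef2 was lower without overlap, at 10.64 to 11.10 against 11.58 to 12.40, whereas sna overlapped, at 10.24 to 11.18 against 10.40 to 10.71. Germ line sums were higher, at 17.26 to 17.42 against 16.88 to 17.01, and so were nos, pgc and osk. The ranges of aub and ovo overlapped, whereas gcl and bam were lower in the mutant without overlap. For gcl they were 14.49 to 14.72 against 14.79 to 14.98, and for bam 11.12 to 11.74 against 11.92 to 12.39. Hemocyte sums overlapped, at 14.50 to 14.77 against 14.21 to 14.53. The part of other cells in these levels was not tested.

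From 1-3 h to 3-5 h no change was called in the mutant. Cg25C had log2 signals of 6.21, 5.49 and 5.75 at 3-5 h, Cad74A had 4.53, 4.97 and 4.99, and jbug had 4.38, 3.92 and 5.02, all overlapping the earlier values. By limma, with 3 samples against 3, the differences were -0.29 ± 0.22 (SE, adjusted p = 0.406), 0.07 ± 0.28 (adjusted p = 0.883) and -0.31 ± 0.32 (adjusted p = 0.552). Thus 0 of the 3 were called, beside 10.9% of all transcripts, and 0 had an unadjusted p under 0.05. The confidence intervals were -0.82 to 0.24 for Cg25C, -0.59 to 0.74 for Cad74A and -1.08 to 0.47 for jbug. They leave room for changes of the measured signal of up to about 2-fold. Cad74A and jbug lay within the range of the controls at both ages, so the intervals do not limit the change in their level. The labels give Cy5 at 1-3 h and Cy3 at 3-5 h, so dye and age cannot be told apart.

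By 5-7 h all 3 transcripts rose in the mutant. Cg25C reached log2 signals of 8.0, 8.16, 8.83 and 9.10, above every earlier mutant sample. Cad74A reached 6.68, 6.58, 8.26 and 6.79, and jbug reached 6.09, 6.06, 8.49 and 7.00, with replicate 3 the highest for both. Against 3-5 h the rises were 2.71 ± 0.32 (SE, adjusted p = 0.00365), 2.25 ± 0.41 (adjusted p = 0.0106) and 2.47 ± 0.60 (adjusted p = 0.0269) by limma, with 4 samples against 3. All 3 were called higher, beside 12.3% of all transcripts called in either direction, 1003 of them higher and 1039 lower. The dyes of these ages differ in the labels. Compared with the mutant 1-3 h samples, which share the Cy5 label, the rises were 2.42 ± 0.29 (adjusted p = 0.00131), 2.32 ± 0.44 (adjusted p = 0.00726) and 2.16 ± 0.57 (adjusted p = 0.027), in a comparison added after the values were seen, where 19.3% of all transcripts were called. The call for jbug was lost without any 1 of the mutant 3-5 h replicates or without mutant 5-7 h replicate 4, at adjusted p of 0.0528 to 0.0897. With all 7 groups in 1 fit, Cad74A and jbug were not called (adjusted p = 0.223 and 0.0985).

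Even after this rise the signals remained a small part of the somatic ones. Mutant 5-7 h PGCs held 0.674% to 1.45% of the somatic level for Cg25C, 0.857% to 2.74% for Cad74A and 0.611% to 3.29% for jbug. The median share of the 110 other somatic transcripts was 0.648% to 0.807% at 3-5 h and 2.01% to 3.12% at 5-7 h. The mesodermal sum of sna and Mef2 was 10.84 to 11.45 at 3-5 h and 10.15 to 10.46 at 5-7 h, so the later range was the lower. Mef2 alone was also lower without overlap, whereas sna, at 8.90 to 10.20 and then 8.59 to 9.78, overlapped. The log2 signal of D was 6.82 to 8.47 and then 9.47 to 10.62, and the sum of hkb and tll was 9.43 to 9.81 and then 7.45 to 9.80. Of its members tll was lower at 5-7 h without overlap, at 8.72 to 9.12 and then 5.24 to 8.22, whereas hkb overlapped. Hemocyte sums were 14.68 to 14.96 and then 14.54 to 14.87, but their members did not move alike. Pxn was 4.36 to 5.35 and then 5.44 to 6.42, ush was 10.82 to 11.30 and then 10.18 to 10.80, and Pvr and crq overlapped. Germ line sums were 16.91 to 16.96 and then 16.69 to 16.95. Whether other cells in the sorted samples contributed to the rise was not tested.

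Between genotypes, the 3 transcripts were lower in mutant than in wild-type PGCs at 3-5 h, with 3 samples against 4. The differences by limma were -1.98 ± 0.28 (SE, adjusted p = 0.00185) for Cg25C, -2.26 ± 0.30 (adjusted p = 0.00134) for Cad74A and -2.82 ± 0.63 (adjusted p = 0.0122) for jbug. All 3 were called lower, beside 16.6% of all transcripts called in either direction, 1301 of them lower. The labels give different dyes to these groups, so dye and genotype cannot be told apart, and a comparison by the same dye exists only at the other ages. Other signals also differed between these groups. The 110 other somatic transcripts held a median of 0.648% to 0.807% of the somatic level in mutant and 1.99% to 2.36% in wild-type samples. The log2 signal of D was 6.82 to 8.47 in mutant and 11.76 to 12.73 in wild-type samples, and the sum of hkb and tll was 9.43 to 9.81 and 13.07 to 13.28. In somatic cells that sum was lower than in wild-type 3-5 h PGCs, at 12.18 to 12.44. There tll alone was 9.75 to 10.25, against 12.62 to 12.87 in those PGCs. The sums of sna and Mef2, at 10.84 to 11.45 and 10.74 to 11.35, overlapped, as did Mef2 alone. By contrast sna was higher in the mutant without overlap, at 8.90 to 10.20 against 7.53 to 8.81. Germ line sums were 16.91 to 16.96 and 16.06 to 16.28. Of their members bam ran the other way, at 10.42 to 10.74 and 10.97 to 11.57, and aub overlapped. Hemocyte sums were higher in the mutant without overlap, at 14.68 to 14.96 against 14.36 to 14.50 in wild-type samples, but their members did not move alike. Only the abundant crq was higher in the mutant without overlap, at 14.55 to 14.86 against 14.14 to 14.26. In somatic cells crq was lower than in both groups, at 13.21 to 13.53. Pxn, at 4.36 to 5.35 against 5.84 to 6.78, and ush were lower in the mutant without overlap, and Pvr overlapped. The part of other cells in the difference was not tested. With all 7 groups in 1 fit, none of the 3 was called, at adjusted p of 0.127, 0.209 and 0.051.

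At 5-7 h, with 4 samples of each genotype labelled Cy5, the outcome turned on the wild-type pairs. Over all 8 samples the mutant minus wild-type differences were -1.39 ± 1.29 (SE, adjusted p = 0.55), -1.92 ± 1.78 (adjusted p = 0.55) and -3.53 ± 1.39 (adjusted p = 0.195) by limma. Thus 0 of the 3 were called, beside 2.5% of all transcripts, and 1 of them, jbug, had an unadjusted p under 0.05. The confidence intervals ran from -4.34 to 1.57, from -5.99 to 2.16 and from -6.72 to -0.34. Against wild-type replicates 1 and 2 alone, the mutant differed by 1.17 for Cg25C, 1.62 for Cad74A and -0.89 for jbug. Every mutant sample lay above both of these wild-type samples for Cg25C and Cad74A, whereas for jbug the ranges overlapped through mutant replicate 3. Against replicates 3 and 4 alone, the differences were -3.95, -5.46 and -6.17.

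The change from 3-5 h to 5-7 h was itself compared between genotypes. Mutant minus wild-type change was 0.60 ± 1.51 (SE, adjusted p = 0.857) for Cg25C, 0.34 ± 2.07 (adjusted p = 0.946) for Cad74A and -0.71 ± 1.72 (adjusted p = 0.852) for jbug by limma. None was called, beside 3.15% of all transcripts, and 0 had an unadjusted p under 0.05. Without wild-type 5-7 h replicates 3 and 4 the values were 3.16, 3.88 and 1.93. Without replicates 1 and 2 they were -1.96, -3.20 and -3.35, so the 2 wild-type pairs gave opposite signs for all 3 transcripts.

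**Figure D4:**
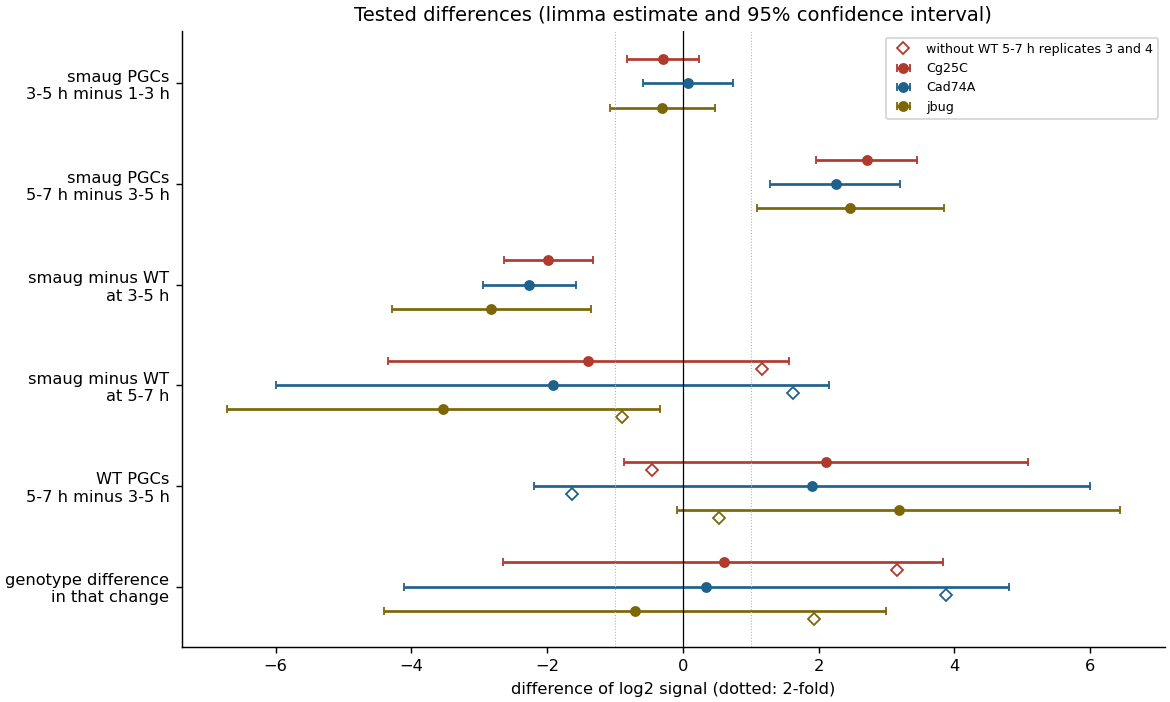
Tested differences of log2 signal (horizontal axis) for Cg25C, Cad74A and jbug in 6 comparisons, as the limma estimate (dots) with its 95% confidence interval (bars); open diamonds give the estimate without wild-type 5-7 h replicates 3 and 4. The mutant rise at 5-7 h and the lower mutant level at 3-5 h have intervals clear of 0, and the diamonds lie on the other side of 0 from the dots for Cg25C and Cad74A in both 2-group comparisons with wild-type 5-7 h PGCs.

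The group means are given in order, in which the second place of wild-type 5-7 h PGCs rested on replicates 3 and 4. In replicates 1 and 2 alone the mean log2 signals were 7.35 for Cg25C and 5.45 for Cad74A, below those of wild-type 1-3 h PGCs, and 7.80 for jbug. For Cg25C the group means ± SD of log2 signal were 15.21 ± 0.10 in soma, 9.91 ± 2.97 in wild-type 5-7 h PGCs and 8.52 ± 0.53 in mutant 5-7 h PGCs. Then came 7.80 ± 0.44 and 7.45 ± 0.69 in wild-type PGCs at 3-5 h and 1-3 h, and 6.11 ± 0.08 and 5.82 ± 0.36 in mutant PGCs at 1-3 h and 3-5 h. Of the neighbours in this order, only soma and wild-type 5-7 h PGCs, and wild-type and mutant PGCs at 1-3 h, did not overlap. Cad74A followed with 13.44 ± 0.06, 8.99 ± 4.10, 7.09 ± 0.52 in wild-type 3-5 h, 7.08 ± 0.79 in mutant 5-7 h, 5.80 ± 0.58 in wild-type 1-3 h, 4.83 ± 0.26 in mutant 3-5 h and 4.76 ± 0.46 in mutant 1-3 h PGCs. For jbug the values were 13.41 ± 0.10 in soma, 10.44 ± 3.05, 7.26 ± 1.20 and 5.85 ± 0.60 in wild-type PGCs from the latest to the earliest age, and 6.91 ± 1.14, 4.44 ± 0.55 and 4.75 ± 0.32 in mutant PGCs at 5-7 h, 3-5 h and 1-3 h. The wild-type 3-5 h and mutant 5-7 h samples overlapped for all 3 transcripts. For Cad74A the gaps in the order lay below the soma and between wild-type 1-3 h and mutant PGCs up to 5 h, and for jbug the only gaps lay below the soma and, by less than the printed precision, between the genotypes at 1-3 h.

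Across the 26 samples the log2 signals of the 3 transcripts correlated with each other at Pearson's r of 0.95 to 0.97, a description over samples that share the contrast used to choose them. Over the 22 PGC samples r was 0.91 to 0.94, and without wild-type 5-7 h replicates 3 and 4 it was 0.67 to 0.78 over 20 samples. The 2 samples therefore carried part of the likeness. Among named transcripts, the one most like Cg25C over the 26 samples was that of dan (distal antenna), a nuclear protein known from eye and antenna development, with r = 0.988, followed by Cad74A at 0.972, CG4500 at 0.970 and CG32982 and Pxn at 0.967. Most like Cad74A was Pxn, the peroxidasin that cross-links collagen IV in basement membranes, at r = 0.973. It was followed by dan, Cg25C and CG32982 at 0.972 and Trim9, a tripartite-motif protein, at 0.971. For jbug the nearest were CG32982 at 0.985, the POU-domain factor gene pdm2 at 0.977, CG30286 at 0.967, the innexin gene inx3 at 0.966 and trn (Tartan), a leucine-rich-repeat membrane protein, at 0.965. Counts above r = 0.95 were 62, 72 and 60 of 16622 transcripts for Cg25C, Cad74A and jbug.

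The levels of these neighbours in the wild-type 5-7 h samples differed between genes. In replicates 3 and 4, dan held 21.1% and 15.4% of its somatic level, close to the 14.7% and 15.3% of Cg25C, and Pxn held 68.7% and 12.8%. By contrast pdm2 held 142% and 120%, CG30286 held 159% and 112%, and trn held 89.9% and 73.8%. In replicates 1 and 2 dan held 0.431% and 0.761%, whereas pdm2 held 5.77% and 5.18%.

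Other genes of the same functions were counted from lists of basement membrane, cadherin-based adhesion and actin cytoskeleton genes. The lists were measured only in part, since many of their genes have no named transcript here. Of the 21 matrix genes only Plod, a collagen-modifying lysyl hydroxylase, and Pxn had a named transcript. Their median somatic excess at 1-3 h was 3.92, with 6.17 for Pxn and 1.67 for Plod, and that of all transcripts was -0.15. For 7 of 23 adhesion genes the median was 0.08, with 4.10 for Fas3, a homophilic adhesion protein, and 0.25 for shg, the fly E-cadherin. For 10 of 20 cytoskeletal genes it was 0.39, from 1.57 for zip, non-muscle myosin heavy chain, to -2.64 for Vinc, vinculin.

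In the mutant from 3-5 h to 5-7 h, when Cg25C, Cad74A and jbug rose, 0 of 2 matrix, 0 of 7 adhesion and 1 of 10 cytoskeletal genes were called higher by limma, beside 1003 of all 16623 transcripts. An unadjusted p under 0.05 in either direction was seen for 1, 5 and 5 of them. The 1 was kst, the heavy beta-spectrin of the apical membrane skeleton, with 1.46 ± 0.42 (SE, adjusted p = 0.0475). Called lower were 3 adhesion genes and 2 cytoskeletal genes, beside 1039 of all transcripts. They were p120ctn at -3.22 and alpha-Cat at -1.38, both partners of E-cadherin, Cals (Calsyntenin-1), a cadherin of synapses, at -1.71, zip at -1.59 and Tm1, a tropomyosin, at -1.42. The list medians were 0.49, -0.80 and -0.58, and that of all transcripts was 0.02. Pxn had 0.99 ± 0.31 and was not called (adjusted p = 0.0642).

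At 3-5 h, when the 3 transcripts were lower in mutant than in wild-type PGCs, Pxn at -1.32 ± 0.30 (SE, adjusted p = 0.0141) and kst at -1.02 ± 0.31 (adjusted p = 0.039) were called lower by limma. The adhesion genes alpha-Cat at 1.93, p120ctn at 1.94 and Cals at 1.23 were called higher. These were 3 of 7 adhesion genes higher, with 1 of 2 matrix and 1 of 10 cytoskeletal genes lower, beside 1458 of all 16623 transcripts called higher and 1301 called lower. The list medians were -0.67, 0.50 and 0.13 for matrix, adhesion and cytoskeleton, against 0.01 for all transcripts. At 5-7 h limma called 0 genes of the lists between genotypes, with an unadjusted p under 0.05 for 0 of 2 matrix, 1 of 7 adhesion and 2 of 10 cytoskeletal genes. With 2.5% of all transcripts called there, a count of 0 is near the background. From 1-3 h to 3-5 h in the mutant, shg at 1.46 and sn, the fascin that bundles actin, at 1.09 were called higher. Fim (fimbrin), another bundling protein, at -1.20 and Ilk (integrin-linked kinase) at -1.23 were called lower, beside 10.9% of all transcripts called in either direction. In wild-type PGCs from 3-5 h to 5-7 h, Vinc at -2.76 and sn at -1.36 were called lower, where 2.95% of all transcripts were called. In the genotype difference of that change p120ctn was the list gene called, at -2.97, where 3.15% were called.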

How the data were processed

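RNA of 26 sorted samples was amplified and hybridised to custom NimbleGen arrays. The authors quantified the scans in Nimblescan, normalised them by the RMA quantile method in ArrayStar 3 and deposited linear intensity values, 1 per feature and sample. Quantile normalisation hides a change in total RNA. Each hybridisation took 2 samples, and which 2 shared one is not given in the sources used here. Log2 was taken, and 16623 of 17130 features, those with a FlyBase transcript identifier, were tested. The number of arrays limits the precision, and no detection call was used.

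Groups were compared with limma 3.58.1 in R 4.3.3 for each comparison on its own samples, and p-values were adjusted by Benjamini-Hochberg over the 16623 transcripts. The methods' SAM was not run. Differences were called at an adjusted p below 0.05 and more than 2-fold, and the limma step was tested on simulated data. Shares of the somatic level are 2 to the power of a sample's log2 signal minus the somatic mean log2 signal.

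Names came from the study's supplementary lists, matched to transcripts through the values printed there, which named 5383 transcripts of 4793 genes. The copies used here are partly shortened, so genes without a name were not analysed here. The genes named are the 3 transcripts, the 5 named transcripts most correlated with each, and list genes by signal or call. Their RefSeq neighbours, 2 per gene, have no named transcript here. The members, lists and tests were chosen with earlier results of these data known. Alternatives were another fit, scaling, block, weights or filter and samples left out. Figures were drawn with matplotlib 3.10.9 in Python 3.11.15.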

Additional observations from a re-analysis of the deposited data

Results flagged for a closer look

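In 3 of 15 combinations of transcript and 4-sample group, 1 sample lay far from the others, by the gap to its nearest neighbour over the range of the group. Chance gives about 1 in 20 groups such a sample. Cg25C in wild-type 1-3 h PGCs had a value of 0.931, from replicate 3 at a log2 signal of 8.48 against 7.05 to 7.15 in the others. Cad74A in wild-type 3-5 h PGCs had 0.944, from replicate 3 at 6.30 against 7.32 to 7.38. Cad74A in mutant 5-7 h PGCs had 0.875, from replicate 3 at 8.26 against 6.58 to 6.79, and jbug was highest in the same sample, at 8.49.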

How the results depend on the processing

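Under other settings, 237 values of the 3 transcripts kept their direction and their side of the threshold. The call was lost by 12, the sign changed in 22, and 14 gained the call, 3 of them with the sign changed. Apart from jbug with all 7 groups in 1 fit, every gained call came from leaving out a pair of wild-type 5-7 h replicates. Those pairs were told apart by these same signals, so such calls are no test. With all 7 groups in 1 fit, the mutant rise at 5-7 h was not called for Cad74A (2.25) and jbug (2.47), nor the mutant deficit at 3-5 h for Cg25C (-1.98), Cad74A (-2.26) and jbug (-2.82). The jbug differences at 5-7 h between genotypes (-3.53, adjusted p = 0.00821) and in wild type (3.18, adjusted p = 0.0162) were called in limma with that fit. It keeps each estimate but pools the spread of all 7 groups, which changes the SE. Replicate numbers did not pair the samples, since deviations of same-numbered samples correlated at -0.11 to 0.22. With the replicate number as a block the mutant rise at 5-7 h was 2.51, 2.34 and 2.44 for Cg25C, Cad74A and jbug, at adjusted p of 0.0526, 0.0573 and 0.0576, and the Cad74A genotype difference of change was -0.03. Median centring turned Cad74A from 1-3 h to 3-5 h in the mutant to -0.06. Array weights turned the 5-7 h genotype differences of Cg25C and Cad74A to 0.46 and 0.59, the wild-type change of Cad74A to -0.74 and the jbug genotype difference of change to 0.88. Why the block, the centring and the weights moved these values was not tested.

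Without wild-type 5-7 h replicates 3 and 4, the genotype differences at 5-7 h were 1.17 and 1.62 for Cg25C and Cad74A, the wild-type changes -0.45 and -1.64, and the differences of change 3.16, 3.88 and, for jbug, 1.93. Without replicates 1 and 2 these were -3.95, -5.46 and -6.17, then 4.67, 5.45 and 5.82, then -1.96, -3.20 and -3.35.

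The number of transcripts called moved under the same settings. Between genotypes at 5-7 h it was 415, and 2914 with 1 fit, 43 with the block, 1137 with weights, 804 without replicates 3 and 4 and 4100 without 1 and 2. In wild type from 3-5 h to 5-7 h it was 490, and 2698, 0, 999, 1268 and 4448 under these. For the genotype difference of change it was 524, and 1413, 235, 1110, 1110 and 4194. For the mutant rise at 5-7 h the block gave 120 in place of 2042.

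Leaving out 1 sample at a time, Cg25C, Cad74A and jbug ranged as follows. From 1-3 h to 3-5 h in the mutant they ran from -0.49 to -0.13, from -0.12 to 0.33 and from -0.60 to -0.05, and the calls over all transcripts from 1031 to 1478. The mutant rise at 5-7 h ran from 2.51 to 2.90, from 1.85 to 2.41 and from 1.95 to 2.76, with 1405 to 2206 calls. The genotype difference at 3-5 h ran from -2.18 to -1.82, from -2.52 to -2.11 and from -3.37 to -2.41, with 2580 to 2706 calls. At 5-7 h it ran from -2.34 to -0.52, from -3.22 to -0.68 and from -4.48 to -2.62, with 77 to 574 calls. The wild-type change ran from 1.25 to 3.06, from 0.67 to 3.21 and from 2.27 to 4.13, with 0 to 1024 calls, and 0 without any 1 of the 3-5 h replicates. The genotype difference of change ran from -0.35 to 1.46, from -0.96 to 1.57 and from -1.66 to 0.20, with 146 to 982 calls, the sign turning without single wild-type 5-7 h replicates and, for Cad74A, without mutant 5-7 h replicate 3. Signals near the control level limit Cad74A and jbug in mutant PGCs at 1-3 h and 3-5 h.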
